A study of Mus musculus with 3 samples.

Results

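Mitochondrial ribosomal protein genes were examined for H3K36me3, histone H3 trimethylated at lysine 36, in regulatory T cells (Treg cells) from mouse spleen and large intestine (LI). The members are the protein-coding genes of the GENCODE M21 annotation whose symbol starts with Mrpl or Mrps followed by a digit, and there were 78 of them, 49 Mrpl and 29 Mrps, among 21951 protein-coding genes. The Treg cells were CD3+CD4+Foxp3-YFP+ cells sorted at steady state from adult C57BL/6 mice labelled Foxp3-YFP, which carry a Cre and YFP reporter driven from Foxp3 (Foxp3Cre-YFP) and no Setd2 deletion. Males and females, 7 of each, were pooled, and each tissue gave 1 chromatin immunoprecipitation library made from an equal amount of chromatin. Every difference between tissues is therefore a difference between 2 libraries with no replicate check, and no p-value was computed. In such a pool, fewer cells carrying the mark and less of the mark per cell cannot be told apart. The input library, prepared from splenic chromatin without the antibody step, was not analysed here.

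The mitochondrial ribosome (mitoribosome) translates the few messenger RNAs that the mitochondrial genome encodes, all of them for subunits of the respiratory chain and the ATP synthase. Its ribosomal RNAs come from mitochondrial DNA, whereas all of its proteins are encoded in the nucleus, made on cytosolic ribosomes and imported. Some of them have counterparts in bacterial ribosomes, and others were added to the mitoribosome during evolution. H3K36me3 is deposited by Setd2 travelling with elongating RNA polymerase II, so it lies over the bodies of transcribed genes rather than over their promoters.

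The values are mean RPKM (read coverage per kilobase, scaled to sequencing depth) of each merged peak. From the steps of the values, the spleen library held about 29600000 mapped reads and the LI library about 38100000. All 8 Treg markers examined had peaks, and their summed value was 1881 RPKM in spleen and 1596 RPKM in LI. Scaled to the library totals, 4 of them were higher in LI. These were Tnfrsf18 (33.7 RPKM in spleen and 61.1 RPKM in LI), Ctla4 (66.1 and 103 RPKM), Cd4 (73.9 and 83.2 RPKM) and Foxp3. Foxp3, the lineage factor of Treg cells, had 133 RPKM in spleen and 156 RPKM in LI. Ikzf2, Il2ra, Cd3g and Cd3e, the other 4, were higher in spleen. Ikzf2, which encodes the Treg factor Helios, had 115 peaks with 1205 RPKM in spleen and 851 RPKM in LI. It made up most of both sums, so their direction rests on this gene. Of 7 intestinal epithelium markers 2 had a peak, Epcam with 25.3 RPKM in spleen and 47.2 RPKM in LI and Vil1 with 4.63 and 12.6 RPKM, and the other 5 had none. Of 6 B cell markers 3 had a peak (summed 60.2 RPKM in spleen and 53.4 RPKM in LI), as did 2 of 6 myeloid markers (29.7 and 31.3 RPKM). Such sums rise with the number of peaks. As a mean over all bases of the gene body, the myeloid marker Cd68, with 1 peak, had 13.8 RPKM in each tissue. Csf1r, the other myeloid marker with a peak, had 0.67 and 0.75 RPKM. The median over the Treg markers was 13.6 RPKM in spleen and 13.9 RPKM in LI. The part of other cells in the ratios below was not tested.

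Of the 78 members, 73 (93.6%) held the midpoint of at least 1 peak within their bodies, whereas 10037 of all coding genes (45.7%) had one. High shares were also found in similar gene lists. They were 91.5% of other genes of mitochondrial translation, 87.1% of nuclear genes of oxidative phosphorylation and 80.4% of cytosolic ribosomal protein genes. These 73 members held 422 peaks, with a median of 4 peaks per gene, 8 genes with 1 peak and up to 44 in Mrpl33. The genes lay on 17 chromosomes, and their bodies ran from 789 bp in Mrpl34 to 121773 bp in Mrps28. Of the 422 peaks, 53 (12.6%) had their midpoint within 1 kb of the start of one of the gene's own transcripts, 101 (23.9%) lay in exons and 268 (63.5%) in introns. In 10 members, 71 of these peaks also had their midpoint in the body of another coding gene.

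The promoters of these genes were compared with the peaks, because H3K36me3 is a mark of gene bodies. RefSeq promoter windows (250 bases before to 50 bases after the start, GRCm38.p6) were found for 69 of the 78 members, 75 windows in all. Mrpl4, Mrpl13, Mrpl15, Mrpl19, Mrpl38, Mrpl54, Mrps28, Mrps34 and Mrps35 were not matched. A peak lay over a window in 6 of the 69 members, Mrpl12, Mrpl28, Mrpl41, Mrpl49, Mrps7 and Mrps33. The same share over all coding windows was not computed, so this count cannot be called low or high. The 7 letters CCGGAAG, the core bound by ETS factors, were found on either strand in 26 of the 75 windows (34.7%), and in 8.86% of all 32817 windows and 11.6% of coding windows. AAGATG followed by GCGGC, a YY1 site, was found in 5 windows (6.67%, against 0.631% of all and 0.886% of coding windows). GCGCA followed by TGCGC, an NRF1 site, was in 3 windows (4%, against 0.966% and 1.32%), those of Mrpl9, Mrpl32 and Mrpl39. The median GC content was 58.7% in member windows and 56.3% in coding windows, and its part in these shares was not tested. CACGTG, the E-box, was in 9.33% of member windows, 7.15% of all and 7.83% of coding windows. The windows of Mrpl2 overlap and hold the same site, and by gene the E-box was found in 5 of the 69 members (7.25%). These searches overlap in part, since 1 window can hold several of the motifs, and a match is a description of letters and not of binding.

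Of the members with a window that entered the tissue comparison, 23 held the ETS core, with a median log2 ratio of LI over spleen of 0.031, and 39 did not, with a median of -0.047. Promoters of 3 members are shown as examples with the ETS core in capitals. They were picked because their 250 upstream bases overlap no annotated exon, and they are those of Mrpl58, which had a low ratio, of Mrpl34, the shortest member, and of Mrps22. The upstream bases lie on the plus strand for Mrpl58 (mm10, chr11:115403502-115403751) and Mrpl34 (chr8:71464676-71464925) and on the minus strand for Mrps22 (chr9:98601680-98601929), each printed 5′ to 3′ in the direction of the gene.
Mrpl58 promoter: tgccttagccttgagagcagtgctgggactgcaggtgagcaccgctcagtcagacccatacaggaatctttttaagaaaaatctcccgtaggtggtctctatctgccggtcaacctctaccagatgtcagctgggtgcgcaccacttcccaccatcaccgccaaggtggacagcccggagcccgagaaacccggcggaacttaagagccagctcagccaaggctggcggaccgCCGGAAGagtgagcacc
Mrpl34 promoter: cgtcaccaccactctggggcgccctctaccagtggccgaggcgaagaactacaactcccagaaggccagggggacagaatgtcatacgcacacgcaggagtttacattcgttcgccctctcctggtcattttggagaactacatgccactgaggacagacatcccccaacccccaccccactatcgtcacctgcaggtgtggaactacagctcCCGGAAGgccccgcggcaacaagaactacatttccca
Mrps22 promoter: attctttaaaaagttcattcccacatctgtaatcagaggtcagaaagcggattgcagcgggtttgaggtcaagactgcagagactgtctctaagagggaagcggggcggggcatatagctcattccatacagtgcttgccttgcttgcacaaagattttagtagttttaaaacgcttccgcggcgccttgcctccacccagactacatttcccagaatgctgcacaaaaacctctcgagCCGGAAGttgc

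None of these 3 windows was overlapped by a peak. As examples of peaks with their midpoint inside the bodies, 3 short ones without any annotated exon base are shown on the plus strand, with each CG dinucleotide in capitals. The peak in Mrps18a (chr17:46116948-46117184) and the one in Mrps18b (chr17:35915666-35915871) belong to paralogs and went in opposite directions between the tissues. The midpoint of the Mrps18b peak lies within 1 kb of a transcript start of its gene. The peak in Mrps33 (chr6:39803538-39803796) had the highest GC content among the 73 such peaks, 59.8%.
Mrps18a peak: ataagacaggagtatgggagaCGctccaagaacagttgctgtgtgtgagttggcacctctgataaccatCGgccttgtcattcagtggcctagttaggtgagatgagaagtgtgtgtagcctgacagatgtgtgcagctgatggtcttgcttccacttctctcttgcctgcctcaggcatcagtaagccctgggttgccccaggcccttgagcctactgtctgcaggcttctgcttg
Mrps18b peak: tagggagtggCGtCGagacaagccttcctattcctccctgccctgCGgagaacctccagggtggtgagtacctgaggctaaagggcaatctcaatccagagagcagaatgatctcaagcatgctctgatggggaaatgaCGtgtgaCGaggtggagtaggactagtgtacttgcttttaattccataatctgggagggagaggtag
Mrps33 peak: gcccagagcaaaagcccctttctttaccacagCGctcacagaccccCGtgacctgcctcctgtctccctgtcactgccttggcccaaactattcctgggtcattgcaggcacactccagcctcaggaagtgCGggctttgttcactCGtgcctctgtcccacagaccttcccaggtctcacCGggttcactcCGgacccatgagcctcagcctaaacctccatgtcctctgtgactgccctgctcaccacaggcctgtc

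The values of the Mrps18a peak were 15.3 RPKM (spleen) and 5.60 RPKM (LI), and those of the Mrps18b peak were 6.08 RPKM (spleen) and 13.3 RPKM (LI). The Mrps33 peak, with 6 CG dinucleotides, had values of 7.28 RPKM (spleen) and 10.7 RPKM (LI). Short peaks such as these varied more between the libraries than long ones. Over the 317 member peaks under 1 kb the SD of the log2 ratio was 0.75, and for the 105 longer ones, which held 62.0% of the covered bases, it was 0.28.

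Along the gene body, H3K36me3 of the 73 members with a peak rose from the start towards the end. With bases outside peaks taken as 0, the mean in spleen was 1.02 RPKM in the first 5% of the body, reached 9.91 RPKM between 70% and 75% of its length, was 7.39 RPKM in the last 5% and was 3.30 RPKM between 120% and 125%, downstream of the end. In LI the corresponding means were 1.29, 10.1, 8.19 and 3.62 RPKM. Over all coding genes with a peak the spleen mean rose from 0.75 RPKM in the first 5% to 9.63 RPKM between 90% and 95%. Between 10% and 20% of the body the members lay below all coding genes, with 1.00 and 1.47 RPKM in spleen against 2.22 and 3.15 RPKM. The members had shorter bodies (median 8062 bp with a peak, against 24274 bp), so that the same share of the body spans fewer bases.

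**Figure D1:**
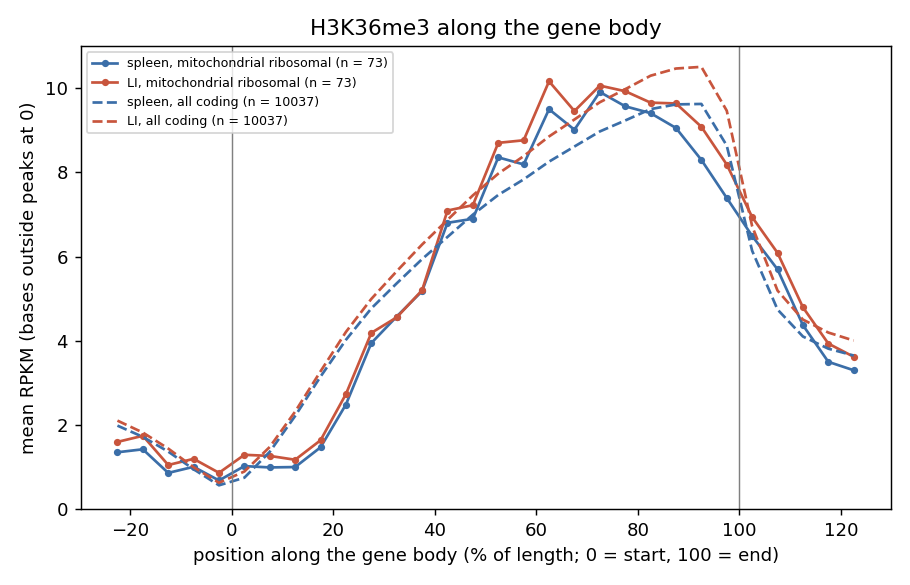
Mean H3K36me3 (RPKM, bases outside peaks at 0) in steps of 5% along the gene body and the same width on either side, for the 73 mitochondrial ribosomal protein genes with a peak (solid lines, points) and 10037 coding genes with a peak (dashed lines), in spleen (blue) and LI (red). The member lines stay near 1 RPKM over the first 15% and peak at 9.91 RPKM in spleen and 10.2 RPKM in LI in the second part of the body.

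The level per length, the mean RPKM over all bases of the body, had a median of 5.19 RPKM in spleen and 5.11 RPKM in LI over the 73 members with a peak. Over all coding genes with a peak it was 4.20 and 4.46 RPKM. Among genes with a body of similar length (the central 80% range of the members), 59 of 62 members had a peak, with medians of 5.52 RPKM in each tissue, and 5252 of 11479 coding genes (45.8%) had one, with medians of 6.17 and 6.48 RPKM. Large-subunit genes had 5.17 RPKM in spleen and 5.06 RPKM in LI, and small-subunit genes had 5.38 and 5.51 RPKM. Genes of cytosolic ribosomal proteins were higher, with 11.8 RPKM in each tissue, and nuclear genes of oxidative phosphorylation had 6.79 RPKM in spleen and 6.53 RPKM in LI.

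**Figure D2:**
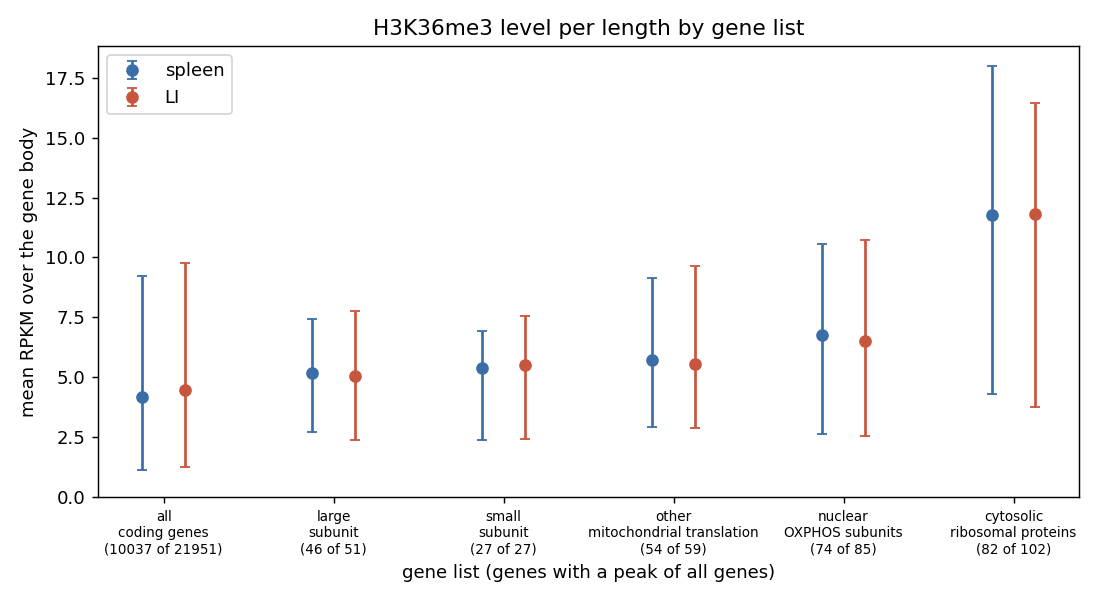
Median H3K36me3 level per length (RPKM over the gene body) in spleen (blue) and LI (red) for each gene list, over the genes with a peak. Bars span the middle 50% of genes, which for both mitoribosome subunits lay between 2.38 and 7.79 RPKM, below the median of cytosolic ribosomal protein genes.

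The members differed widely in level among themselves. By the midpoint rule, the highest level per length in spleen was found in Mrpl12, which forms the stalk that recruits translation factors, with 15.5 RPKM in spleen and 13.4 RPKM in LI. Mrpl37, an addition of the mitochondrial large subunit, had 13.2 RPKM in spleen and 15.2 RPKM in LI. Mrpl4, which lines the tunnel through which the new protein leaves, had 12.0 and 16.2 RPKM. Mrps18a had 12.1 and 13.6 RPKM, and Mrpl22, another tunnel protein and the most covered member with 77.9% of its body in peaks, had 12.1 and 12.4 RPKM. These 5 genes had their order changed between the tissues, with Mrpl12 first in spleen and Mrpl4 first in LI. Of the 78 members, 26 had at least 50% of their body in peaks. The median covered share was 42.0% over the members with a peak and 34.5% over all coding genes with a peak. When every peak overlapping the body was counted, Mrpl49 (21.05 RPKM in spleen and 23.7 RPKM in LI) and Mrps7 (18.1 and 25.3 RPKM) were above Mrpl12 (16.0 and 14.1 RPKM) in each tissue.

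By the midpoint rule, the lowest levels among members with a peak came from genes where the peaks took up little of a long body or lay at its start. Mrps28 had 2 peaks in 121773 bp, covering 0.379% of the body, and a level of 0.024 RPKM in spleen and 0.025 RPKM in LI. Mrpl48 had 0.130 and 0.143 RPKM over 62551 bp. Mrpl49 had 0.397 and 0.457 RPKM from a peak at its start, Mrpl28 had 0.908 and 0.549 RPKM, and Mrpl1, the protein of the mobile stalk at the exit site, had 0.840 and 0.799 RPKM. For Mrpl49 and Mrpl28 the midpoint rule left out peaks shared with neighbours. When any overlap with the body was counted, the covered share of Mrpl49 went from 3.65% to 62.4% and that of Mrpl28 from 7.51% to 49.0%. The level of Mrpl28 was then 7.65 RPKM in spleen and 8.39 RPKM in LI, and Mrpl49 went from the lowest members to the highest level in spleen.

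Mrpl24, Mrpl36, Mrpl53, Mrpl54 and Mrpl57 had no peak with its midpoint in the body. Mrpl24 was overlapped by a peak of 4532 bp with its midpoint in Rrnad1, which had 19.7 RPKM in spleen and 20.5 RPKM in LI. Mrpl54 was overlapped by a peak of 7206 bp centred in Matk, with 21.6 and 30.5 RPKM. The nearest peak lay 368 bp from Mrpl53, 1923 bp from Mrpl36 (a peak in Ndufs6) and 4068 bp from Mrpl57 (a peak in Zdhhc20). In all, 75 of the 78 members (96.2%) were touched by some peak, against 46.7% of all coding genes. The same share was 94.9% in other genes of mitochondrial translation, 89.4% in nuclear oxidative phosphorylation genes and 88.2% in cytosolic ribosomal protein genes.

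To compare the tissues, the values of a gene's peaks were summed per library, and the log2 ratio of LI over spleen was taken with a pseudocount of 0.5 RPKM and scaled to the totals of both libraries, on which scale the change of low genes is understated. Positive values are higher in LI. A gene entered the comparison when its values added up to 20 RPKM or more, which kept 70 members and left out Mrpl28, Mrpl41 and Mrpl43 of those with a peak. An approximate 95% counting interval was computed by taking each read as covering 200 bp. It covers counting error only, treats reads as independent molecules and says nothing of differences between mice.

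H3K36me3 of the mitochondrial ribosomal protein genes was nearly the same in both tissues as a group. The median log2 ratio was -0.0033, with a binomial 95% interval over genes of -0.080 to 0.060, and the median over all 9456 coding genes was 0.0045. Here and below, such an interval of a median describes the spread among genes. Genes are not replicates, so it does not give the uncertainty of the tissue difference. The ratio was positive in 35 members and negative in 35, while 50.7% of all genes were higher in LI and 49.3% higher in spleen. No member was over 1.5-fold higher in LI and 2 were over 1.5-fold higher in spleen, Mrpl17 and Mrpl58, where 9.02% and 5.58% of all genes were past these limits. No member was past 2-fold in either direction (3.21% of all genes in LI and 1.81% in spleen). The counting interval lay above 0 in 6 members and below 0 in 1, against 18.5% and 15.9% of all genes. With 75 bp per read, the read length, these were 10 and 10 members, against 28.7% and 26.9% of all genes.

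**Figure D3:**
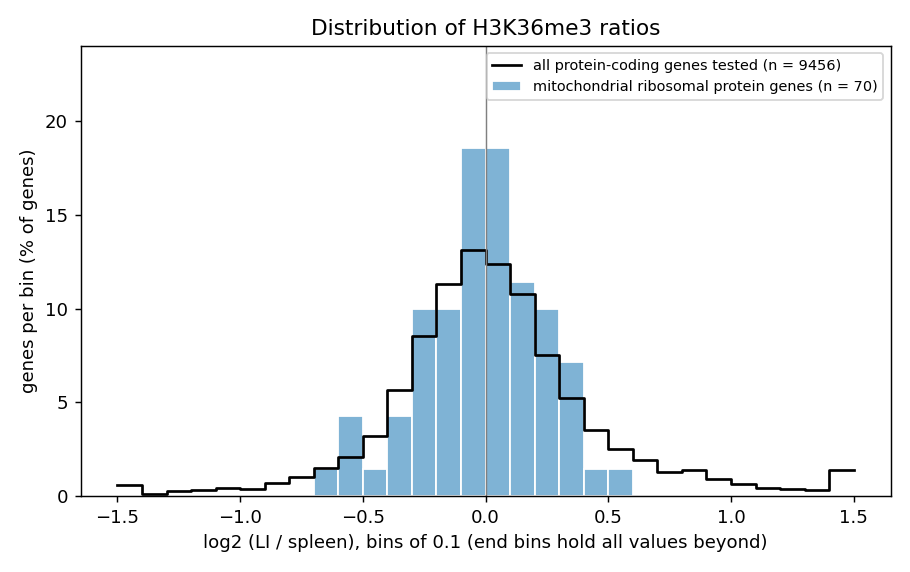
Share of genes (%) in bins of 0.1 of the log2 ratio of LI over spleen for the 70 mitochondrial ribosomal protein genes compared (bars) and all 9456 coding genes compared (line). The member ratios ran from -0.64 to 0.54, whereas the line reaches both end bins, which hold all values beyond.

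The spread of the member ratios was set beside their counting error. Their SD was 0.25, and the root mean square of their counting errors was 0.27 with 200 bp per read and 0.17 with 75 bp, so that their likeness in size rests on the bases taken per read. Over all genes compared the SD was 0.47, and the counting errors were 0.23 and 0.14. Because genes with few reads have wider errors, both were also taken over genes with a summed value between 36.2 and 271 RPKM. In that range 56 members had an SD of 0.26 with a counting error of 0.25 (200 bp per read), and 3.57% of them were past 1.5-fold, whereas 5557 coding genes had an SD of 0.46 with a counting error of 0.23, and 15.4% of them were past 1.5-fold. Across the 70 members, the log levels of spleen and LI had a Pearson correlation of 0.98, as a description over genes that share the same pair of libraries. Both levels are sums over the same merged peaks and rise with the number of peaks per gene. A high correlation follows from that construction, and no likeness of the tissues is read from it.

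**Figure D4:**
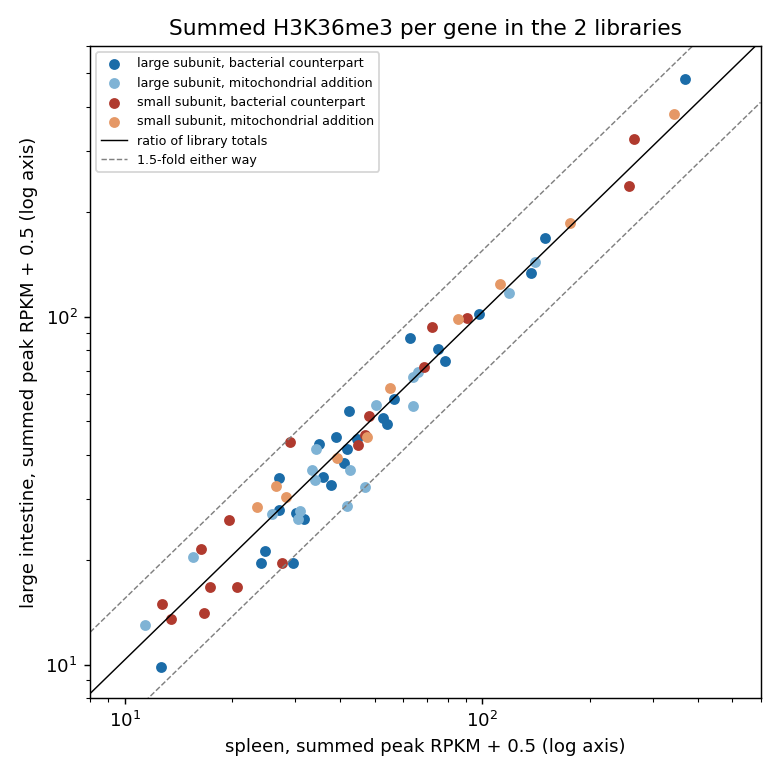
Summed peak value plus the pseudocount of 0.5 (RPKM, log axes) of each of the 70 genes in spleen and LI, coloured by subunit and bacterial origin. The solid line is the ratio of library totals and the dashed lines are 1.5-fold on either side of it, and the points of Mrpl17 and Mrpl58 lie outside the dashed lines, on the spleen side.

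By subunit, 18 of 43 large-subunit genes were higher in LI and 25 higher in spleen, with a median of -0.049 (interval -0.15 to 0.021). Of 27 small-subunit genes 17 were higher in LI and 10 higher in spleen, with a median of 0.060 (interval -0.080 to 0.19). Mrps18a and Mrps30 were counted with the large subunit, where their proteins sit despite their names. There both were grouped as mitochondrial additions. Mrps18a is, however, related to bacterial S18 like its paralogs Mrps18b and Mrps18c, which were grouped as bacterial counterparts, so this split by origin is a choice. All other members were placed in a subunit by their symbol. Whether each of their proteins, such as that of Mrps36, sits in the mitoribosome was not checked. Genes with a bacterial counterpart had medians of -0.070 in the large subunit (26 genes) and 0.021 in the small subunit (17 genes). Mitochondrial additions had medians of -0.017 in the large subunit (17 genes) and 0.11 in the small subunit, where 8 of 10 were higher in LI. The intervals of all 4 medians, which describe genes and not replicates, included 0. The counting interval of none of these 10 small-subunit additions left out 0, with ratios from -0.13 in Mrps22 to 0.26 in Mrps33.

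**Figure D5:**
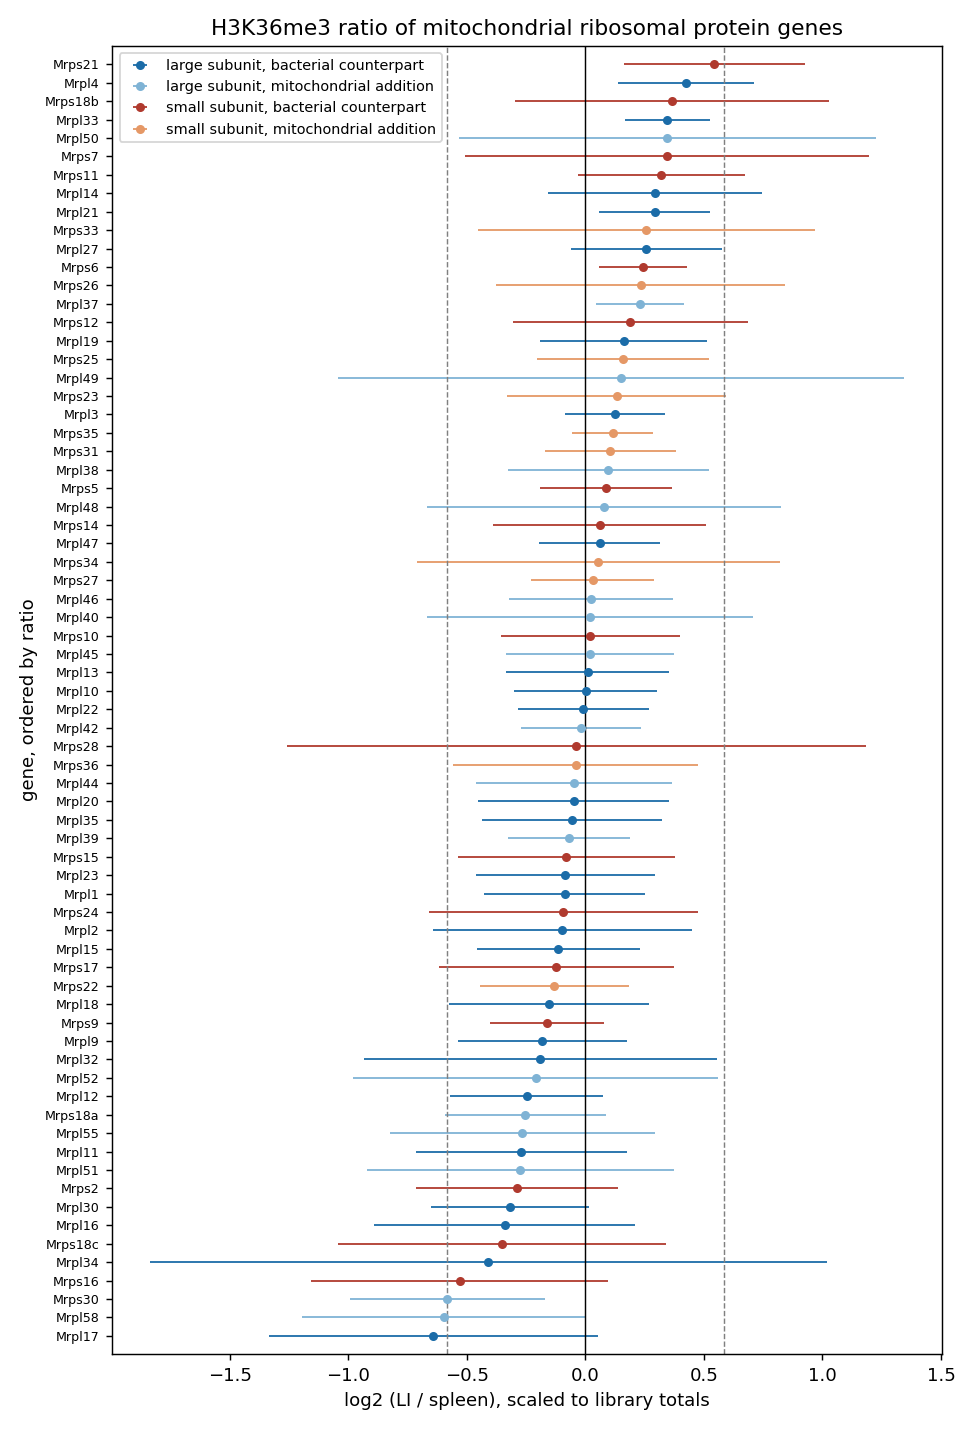
Log2 ratio of LI over spleen of the 70 genes in order, with approximate 95% counting intervals (horizontal bars) and 1.5-fold limits (dashed lines), coloured by subunit and bacterial origin. The intervals of Mrps21, Mrpl4, Mrpl33, Mrpl21, Mrps6 and Mrpl37 lie above 0 and that of Mrps30 lies below it.

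The 6 members with an interval above 0 were all proteins with a bacterial counterpart, except Mrpl37. Such a counterpart is common in the set, with 43 of the 70 members compared, of which 19 were higher in LI and 24 higher in spleen. Mrps21 (ENSMUSG00000054312.6, mm10 chr3:95862634-95871519, minus strand), the counterpart of bacterial S21, had the highest ratio. Its 3 peaks had 14.9, 11.5 and 2.16 RPKM in spleen and 20.7, 11.3 and 11.2 RPKM in LI. The sum was 28.6 RPKM in spleen and 43.2 RPKM in LI, a log2 ratio of 0.54 (0.16 to 0.93). The longest peak, of 4690 bp, was nearly equal in the tissues, while a 267-bp peak differed most, and weighting peaks by their length gave a ratio of 0.059 (-0.19 to 0.30), which included 0.

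Mrpl4 (chr9:21002738-21008839, plus strand) had 4 peaks, with 14.1, 10.5, 14.4 and 23.2 RPKM in spleen and 12.1, 20.97, 22.8 and 30.3 RPKM in LI from start to end. The first was higher in spleen and the other 3 were higher in LI. The sum was 62.2 RPKM in spleen and 86.2 RPKM in LI, a log2 ratio of 0.42 (0.14 to 0.71), and 0.33 with length weights.

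Mrpl33 (chr5:31596935-31664384, plus strand), the member with the most peaks, had summed values of 367 RPKM in spleen and 482 RPKM in LI, a log2 ratio of 0.35 (0.17 to 0.52). Of its 44 peaks 29 also lay in the body of Rbks, a ribokinase, so that the mark of these genes cannot be told apart there. The 15 peaks outside other coding genes gave 0.33 (0.07 to 0.60). Among these 15, peaks before the RefSeq promoter window of Mrpl33 (chr5:31613701-31614000) had log2 ratios from -0.87 to 1.62. Those after the window had ratios from -0.28 to 0.45, so the largest ratios lay upstream of the RefSeq start. Whether the upstream peaks belong to Mrpl33 was not tested. With length weights the ratio of Mrpl33 was 0.14 (0.006 to 0.28), a value below the interval of the summed ratio. The strongest peak of Mrpl33 alone gave -0.061.

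Mrps6 (chr16:92058270-92112227, plus strand), the counterpart of bacterial S6, had sums of 265 RPKM in spleen and 324 RPKM in LI, a log2 ratio of 0.24 (0.06 to 0.43). All of its 28 peaks also lay in the bodies of Slc5a3, a myo-inositol transporter, or Gm49711, so no value of its own was left without them. Mrpl21 (chr19:3282901-3292837) had 3 peaks with 12.1, 10.3 and 19.4 RPKM in spleen and 17.0, 14.8 and 21.1 RPKM in LI, and a ratio of 0.29 (0.06 to 0.53), or 0.17 (-0.067 to 0.40) after correction for GC content. Mrpl37 (chr4:107055874-107066868) had 2 peaks with 18.2 and 15.7 RPKM in spleen and 19.1 and 22.0 RPKM in LI, and a ratio of 0.23 (0.05 to 0.42), or 0.13 (-0.060 to 0.31) after that correction. With peaks weighted by length their intervals also included 0. In Mrpl21 every peak was higher in LI.

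Mrps30 (ENSMUSG00000021731.10, chr13:118378381-118387252, minus strand), a large-subunit addition first named as a programmed cell death protein, was the member with an interval below 0. Its 4 peaks had 10.2, 12.2, 10.5 and 13.5 RPKM in spleen and 4.18, 6.64, 9.63 and 11.4 RPKM in LI. All 4 were higher in spleen, and the sum was 46.4 RPKM in spleen and 31.8 RPKM in LI, a log2 ratio of -0.58 (-0.99 to -0.17), or -0.39 (-0.81 to 0.029) after correction for GC content.

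Mrpl17 (chr7:105803206-105811099, minus strand), the counterpart of bacterial L17, had the lowest ratio. Its 2 peaks had 15.5 and 13.6 RPKM in spleen and 7.73 and 11.3 RPKM in LI, with a log2 ratio of -0.64 whose interval, -1.34 to 0.05, included 0. Mrpl58 (chr11:115403752-115412674, plus strand), a peptidyl-tRNA hydrolase that frees stalled mitoribosomes, had 3 peaks with 13.7, 12.6 and 15.1 RPKM in spleen and 8.23, 6.60 and 13.3 RPKM in LI, and a log2 ratio of -0.60 (-1.20 to 0.002). In both genes every peak was higher in spleen, and the shortest peaks differed most. Mrps16 (chr14:20389304-20393634), the counterpart of bacterial S16, had 13.9 and 13.1 RPKM in spleen against 10.9 and 8.22 RPKM in LI, with a ratio of -0.53 (-1.16 to 0.10). Of the 70 members compared, 13 had every peak higher in spleen and 6 had every peak higher in LI, single peaks included, where 9.56% and 16.5% of all genes compared did. Such counts depend on the number of peaks, whose median was 4 in the members and 7 in all genes.

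The other members at the ends of the order had intervals that included 0. At the spleen end these were Mrpl34 with -0.41, Mrps18c with -0.35, Mrpl16 with -0.34 and Mrpl30 with -0.32, where Mrpl34 rested on a single peak of 200 bp with 12.2 RPKM in spleen and 9.34 RPKM in LI. At the LI end they were Mrps18b with 0.36, Mrpl50 with 0.35, Mrps7 with 0.34, Mrps11 with 0.32 and Mrpl14 with 0.29. Mrps11 starts head to head with Mrpl46 on chromosome 7, and Mrpl46 had a ratio of 0.023 (-0.32 to 0.37). The small-subunit protein Mrps7 was covered by peaks over 17.4% of its body under the midpoint rule, and any overlap raised this to 79.5% with a ratio of 0.41 (0.08 to 0.75). By the same wider rule Mrpl54 had a ratio of 0.45 (0.28 to 0.61), all of it from the peak centred in Matk.

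The 3 paralogs of Mrps18, all related to bacterial S18 and found at different places in the mitoribosome, were set side by side. Mrps18a (chr17:46110986-46128910) had 4 peaks, with 10.7, 15.3, 15.6 and 22.1 RPKM in spleen and 8.05, 5.60, 14.4 and 26.9 RPKM in LI. The first 3 were higher in spleen and the last, of 8350 bp and with its midpoint also in Rsph9, was higher in LI. The ratio of the sums was -0.25 (-0.59 to 0.09), -0.60 (-1.16 to -0.04) without the shared peak and 0.097 with length weights, so its direction depended on the choice of peaks and weights. Mrps18b (chr17:35910379-35916389) had 13.0 and 6.08 RPKM in spleen and 12.2 and 13.3 RPKM in LI, with a ratio of 0.36 (-0.30 to 1.03) that was -0.12 with length weights. Mrps18c (chr5:100798627-100804471) had 9.69 and 10.5 RPKM in spleen and 8.08 and 8.13 RPKM in LI, and a ratio of -0.35 (-1.04 to 0.34). The intervals of the 3 ratios overlapped.

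The ratios were set beside the GC content of the peaks. Over the 70 members, Pearson's r of ratio and GC content was 0.17 and Spearman's rho 0.26, as a description. Of the 35 members with the lower GC content 13 were higher in LI, with a median ratio of -0.049, and of the 35 with the higher GC content 22 were, with a median of 0.054. After the trend of the ratio with GC content over all peaks was taken out, these medians were -0.00023 and -0.035, and 11 members changed sign. The members with an interval above 0 went from 6 to 4 (12.7% of all genes), because those of Mrpl21 (0.17, -0.067 to 0.40) and Mrpl37 (0.13, -0.060 to 0.31) then included 0. Below 0, the interval of Mrps30 then included 0 (-0.39, -0.81 to 0.029), whereas those of Mrpl12 (-0.36, -0.69 to -0.041), Mrpl58 (-0.73, -1.33 to -0.14) and Mrps18a (-0.40, -0.74 to -0.065) lay below it, so that 1 member became 3 (14.0% of all genes). The SD of the ratio was 0.25 before and after, and Pearson's r with GC content was -0.25 after the correction. The part of GC content in the ratios was not tested further.

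The other genes of mitochondrial translation, from lists of proteins with other names, translation factors, assembly factors and tRNA synthetases, were compared in the same way. Of 59 further genes 54 were compared, 26 higher in LI and 28 higher in spleen, with a median of -0.0031 (interval -0.16 to 0.069). A ratio past 1.5-fold toward LI was found in 0 of them (9.02% of all genes), and past 1.5-fold toward spleen in 2 (5.58%). The interval lay above 0 in 5 (18.5%) and below 0 in 4 (15.9%). The 4 mitoribosomal proteins compared that carry other names had a median of -0.19, from -0.36 in Aurkaip1 to 0.054 in Dap3, a GTP-binding protein of the small subunit. The 13 translation factors had a median of -0.029. The lowest of them was Mtrf1, a release factor, with -0.39, and the highest was Taco1, which activates translation of a cytochrome c oxidase subunit, with 0.46. The 21 assembly factors had a median of -0.0020. The lowest of these was Gtpbp10, a GTPase of large-subunit assembly, with 80.4 RPKM in spleen, 54.2 RPKM in LI and a ratio of -0.61 (-1.06 to -0.16), and the highest was Mrm1, which methylates ribosomal RNA, with 0.48 (-0.09 to 1.05).

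The 16 mitochondrial aminoacyl-tRNA synthetases compared had a median of 0.074, and the interval lay above 0 in 4 of them, Pars2, Sars2, Vars2 and Aars2, and below 0 in 2, against 18.5% and 15.9% of all genes. After correction for GC content all 4 intervals above 0 included 0. Nars2, which charges the asparagine tRNA, had 81.8 RPKM in spleen and 45.9 RPKM in LI, a ratio of -0.87 (-1.38 to -0.36). Pars2, the proline enzyme, had sums of 18.4 RPKM in spleen and 28.5 RPKM in LI, with a ratio of 0.57 (0.02 to 1.12). For Sars2, the serine enzyme, sums of 79.3 and 120 RPKM gave 0.55 (0.20 to 0.90). Genes of cytosolic ribosomal proteins had a median ratio of -0.014 (74 genes) and nuclear genes of oxidative phosphorylation one of -0.068 (69 genes, interval -0.15 to 0.036). Past 1.5-fold toward LI were 3 of these 74 and 0 of these 69 genes (9.02% of all genes). Toward spleen there were 1 and 5 (5.58% of all genes).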

How the data were processed

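H3K36me3 was measured by single-end ChIP-seq of 75 nt reads in 1 spleen and 1 LI library of sorted Treg cells, with an input of splenic chromatin that was not analysed here. The authors aligned reads to mm10, called peaks with MACS2 (p-value of 0.01) against the input, merged the peaks of both tissues with bedtools, and averaged RPKM coverage tracks over each merged peak, so the deposited values are RPKM and not raw counts, although the table is labelled so. The processing notes also name FastQC and Bowtie2, with no version. The table held 120910 peaks, and none ran past the end of any of the 21 chromosomes of GRCm38. The members and gene lists were chosen with earlier results of these data known.

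Peaks were assigned to genes by midpoint in the GENCODE M21 body, and values were summed per gene and library. The log2 ratio used a pseudocount of 0.5 RPKM and a minimum of 20 RPKM over both libraries, and was scaled to the totals over all peaks (LI over spleen, log2 0.046). Depth came from the worth of 1 read in a bin of 20 bp, 1.69 RPKM in spleen and 1.31 RPKM in LI, which the deposited peak values matched in all 556 and 545 low peaks aligned to such bins. Reads per peak were not recovered, so no count test was run, and the precision is given by the approximate counting intervals. With 1 library per tissue, no test was made. Genes were named by their rank in ratio or level, their lack of a peak or as paralogs of Mrps18, and genes with an interval that left out 0 were named after their values were seen. GC content was taken from the genome in 20 bins. The alternatives concerned scaling, pseudocount, filter, peak weight, peak choice, assignment, GC content and the bases taken per read. Scripts (Python 3.11.15, numpy 2.4.6, pandas 2.3.3, scipy 1.17.1, matplotlib 3.10.9) were tested on simulated data.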

Additional observations from a re-analysis of the deposited data

How the results depend on the processing

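The median log2 ratio of the members stayed between -0.055 and 0.042 under every alternative but the filter of at least 200 RPKM, where it was 0.068 over 10 members, 6 higher in LI and 4 higher in spleen. With peaks of 1 kb or more alone, 22 of 49 members were higher in spleen. Members over 1.5-fold higher in LI numbered 1 with values as deposited, 4 with the strongest peak and 1 with the nearest transcript start. Those over 1.5-fold higher in spleen numbered 1 with values as deposited, with length weights and with peaks of 1 kb or more, 0 with a pseudocount of 5 and at 200 RPKM, and 4 with the strongest peak. The interval lay above 0 in 2 members at 200 RPKM, in 10 with reads taken as 75 bp, and in 4 with GC correction, length weights or the nearest transcript start. It lay below 0 in 2 members with median-of-ratios or trimmed-mean scaling, a pseudocount of 5, the strongest peak or without shared peaks, in 0 at 200 RPKM, in 4 with length weights, in 3 with GC correction, and in 10 with 75 bp. Among the values of single named genes, 12 moved beyond their counting interval and 321 did not, and Mrpl33 turned to -0.061 with its strongest peak. With length weights, Mrps18a turned from -0.25 to 0.097 and Mrps18b from 0.36 to -0.12. The counting intervals of these 2 summed ratios had included 0. The fall in numbers at 200 RPKM and 1 kb follows from fewer genes compared, and elsewhere the cause was not tested. No paired analysis was possible because each tissue had 1 library. The depth behind short peaks and the single library per tissue limit every ratio of a gene.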
